A study of Mus musculus with 12 samples.

Results

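Gliogenic switch genes are the transcription factors that turn neural progenitors from making neurons to making glia, together with receptors and matrix proteins that mark the first glial cells. They were taken by Ensembl identifier from the table of ribosome footprint counts, from a list of 10 genes named for their known function, which uses no measured value but was drawn up with earlier results of these data known. Of these 10, 9 were analysed among 10481 genes, namely the transcription factors Olig1, Sox9, Nfia, Nfib and Nfix, the receptors Pdgfra and Ptprz1, and the matrix proteins Bcan and Tnc. Olig2 was not analysed here. Ribosome profiling reads out the stretches of mRNA that ribosomes shield from nuclease, here in brain and spinal cord of embryonic day 14.5 (E14.5) Taiwanese mice, a severe model of spinal muscular atrophy (SMA). SMA embryos were Smn-/-; SMN2tg/0 and control embryos were Smn+/-; SMN2tg/0, so the controls also carried the human SMN2 transgene and 1 null allele of mouse Smn. The labels name no drug for any group, the null allele is present in every cell of the embryo, and both sexes were used. Each of the 4 groups had 3 libraries, 12 in all.

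In the developing central nervous system, progenitors make neurons first and glia later. SOX9 and then the NFI proteins (NFIA, NFIB and NFIX) bring on glial competence and astrocyte genes, OLIG1 and OLIG2 act in the oligodendrocyte branch, and oligodendrocyte precursors carry the PDGF receptor alpha. Glial cells are made earlier in the spinal cord than in the forebrain. In both tissues NFI proteins, SOX9 and PTPRZ1 are found in radial glia, and NFI proteins are also found in young neurons.

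Each library was checked against genes of its tissue. The Hox genes Hoxc6, Hoxc8, Hoxb9 and Hoxc10, which pattern the trunk, summed to between 237 and 391 normalized CPM in spinal cord and to at most 2.93 in brain, where normalized CPM is the count scaled to a common library total (CPM) and corrected by TMM. Control spinal cord library 1 stood apart from the other spinal cord libraries, with 416 normalized CPM of 6 proliferation genes, against 117 to 181 in the other 5 spinal cord libraries. In fits within 1 tissue or 1 genotype, the log2 fold change of a gene of the 9 is also given without that library where it decides a call or direction. The same holds where that library moves the value by over 1.5 times. Library totals were 3683842 to 9117017 counts in brain and 5162190 to 12793955 in spinal cord, and every SMA spinal cord library was shallower than every control one. Smn1 could not be followed by name, so the genotype of a library rests on its label.

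The 9 genes together took between 0.127% and 0.171% of the counts of a library. The thinnest was Olig1, with 30 to 87 counts in each brain library and 132 to 295 in each spinal cord library, and the deepest was Ptprz1, with up to 7227. Genes can be set against each other only per length. In control brain, Ptprz1, a receptor phosphatase of radial glia and oligodendrocyte precursors, had the highest footprint level, at 39.9 ± 1.28 CPM per kilobase (SD, n = 3). Nfix followed at 31.2 ± 8.63 and Nfia at 30.7 ± 5.15 CPM per kilobase, then Sox9 at 23.1 ± 1.00 and Nfib at 14.4 ± 2.16. Tnc had 11.4 ± 0.926, Bcan 9.98 ± 1.09, Olig1 4.06 ± 0.492 and Pdgfra 2.99 ± 1.02 CPM per kilobase. Libraries of neighbours overlapped between Ptprz1 and Nfix, Nfix and Nfia, Tnc and Bcan, and Olig1 and Pdgfra, and so the order within these neighbours was not resolved.

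The order was different in control spinal cord. Bcan, the proteoglycan brevican of the glial matrix, was first there with 40.2 ± 2.85 CPM per kilobase (SD, n = 3), and its libraries overlapped those of Ptprz1 at 34.2 ± 6.25. Nfia at 21.99 ± 2.30, Nfix at 18.2 ± 2.15 and Sox9 at 14.04 ± 0.610 came next, and the libraries of Nfia and Nfix overlapped. Pdgfra had 11.8 ± 0.882, Nfib 11.5 ± 2.64, Olig1 10.9 ± 1.93 and Tnc 9.74 ± 1.68 CPM per kilobase, and these 4 overlapped as neighbours. Among all genes, Bcan stood at the 34.5th percentile of footprints per kilobase in control brain and at the 80.7th in control spinal cord. Pdgfra stood at the 9.30th percentile in control brain and at the 37.7th in control spinal cord. The length is that of all exons, so a gene with long untranslated regions has a lower value per kilobase than its coding sequence alone would give.

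**Figure D1:**
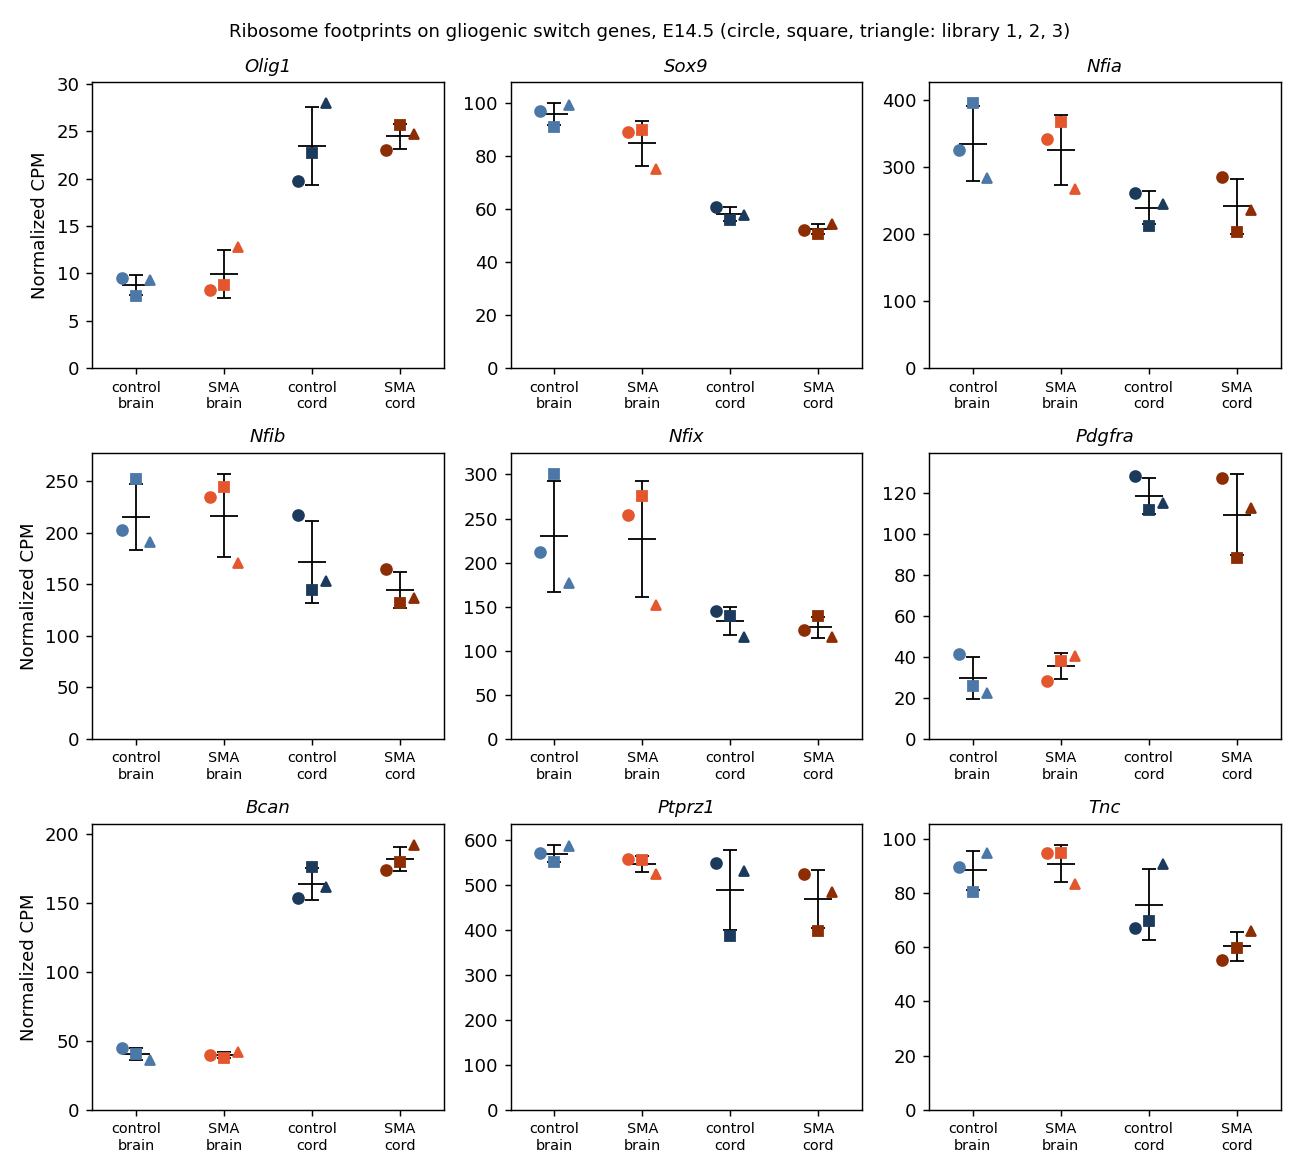
Normalized CPM (12 libraries scaled together) of the 9 gliogenic switch genes, 1 panel per gene, with a point for each library and a bar for the mean ± SD of each group (n = 3). Olig1, Pdgfra and Bcan lie higher in all 6 spinal cord libraries than in all 6 brain libraries, and Sox9 and Nfix lie lower.

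The first comparison asked how the tissues differ in control embryos. Bcan, Pdgfra and Olig1 were higher in spinal cord, Sox9, Nfix and Nfia were higher in brain, and Nfib, Ptprz1 and Tnc were not called. With edgeR's quasi-likelihood test and a Benjamini-Hochberg adjusted p below 0.05, 6 of the 9 genes differed, where 38.4% of all 10481 genes did. Of the 6, Bcan, Pdgfra and Olig1 were higher in spinal cord (20.4% of all genes were) and Sox9, Nfix and Nfia were lower (18.1% of all genes were). The 3 spinal cord libraries did not overlap the 3 brain libraries for 7 of the 9 genes and for 54.0% of all genes. In bulk tissue, more cells that make a protein cannot be told apart from more footprints in each cell, and footprints follow both the amount of mRNA and the ribosomes on it.

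Bcan (ENSMUSG00000004892, chr3:87987531-88002175 in GRCm38.p6, the build of all positions given here) had 45.0, 40.6 and 36.1 normalized CPM in control brain libraries 1, 2 and 3, and 153, 176 and 161 in control spinal cord. The lowest spinal cord library thus held more than 3-fold the highest brain library. In log2 terms the difference was 2.02 (SE 0.11, adjusted p = 5.53e-05) in control and 2.20 (SE 0.094, adjusted p = 1.37e-05) between the tissues of SMA embryos. Pdgfra (ENSMUSG00000029231, chr5:75151322-75198206), the receptor that PDGF-A acts on in oligodendrocyte precursors, had 41.5, 25.8 and 22.2 normalized CPM in control brain and 128, 112 and 115 in control spinal cord. Control brain library 1 stood above the other control brain libraries, and still far under every spinal cord library. Pdgfra differed on the log2 scale by 1.97 (SE 0.21, adjusted p = 0.000465) in control and 1.63 (SE 0.18, adjusted p = 0.000363) in SMA embryos. Without control spinal cord library 1, Bcan was at 2.06 and Pdgfra at 1.90 in control, and Olig1, described next, at 1.53.

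Olig1 (ENSMUSG00000046160, chr16:91269769-91271939), a basic helix-loop-helix factor whose gene lies beside Olig2, followed the same pattern at a lower level. It had 9.52, 7.57 and 9.27 normalized CPM in control brain and 19.7, 22.7 and 28.0 in control spinal cord. The groups did not overlap, and SMA brain, with 8.20, 8.72 and 12.8, lay below SMA spinal cord, with 23.1, 25.6 and 24.7. Its log2 fold change was 1.42 (SE 0.18, adjusted p = 0.00106) in control and 1.32 (SE 0.20, adjusted p = 0.00156) in SMA embryos. Fibroblasts of the meninges also make the PDGF receptor alpha. Of 10 genes listed for them, only Col1a1, a fibrillar collagen, could be followed by name, and it too was higher in control spinal cord, with 13.2, 53.4 and 14.9 normalized CPM against 9.19, 4.62 and 5.37 in brain. In control spinal cord the library with the most Col1a1, library 2, had the least Pdgfra of the 3. The part of Col1a1-making cells in the Pdgfra difference was not tested.

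Sox9 (ENSMUSG00000000567, chr11:112782210-112787757), which starts glial competence in progenitors, stood the other way. It had 96.7, 91.0 and 99.0 normalized CPM in control brain and 60.8, 55.8 and 57.6 in control spinal cord, with tight libraries in both groups and no overlap. This gave a log2 fold change of -0.71 (SE 0.093, adjusted p = 0.00116) in control and -0.69 (SE 0.10, adjusted p = 0.00178) in SMA embryos. Nfix (ENSMUSG00000001911, chr8:84704712-84801238), an NFI factor of later progenitors, had 212, 300 and 177 normalized CPM in control brain and 145.2, 140 and 116 in control spinal cord. Brain libraries of Nfix were spread more widely than those of Sox9, and still none overlapped spinal cord. Its log2 fold change was -0.77 (SE 0.19, adjusted p = 0.0146) in control and -0.84 (SE 0.21, adjusted p = 0.0151) in SMA embryos. Without control spinal cord library 1, Sox9 was at -0.74 and Nfix at -0.84 in control. In SMA embryos the adjusted p of Nfix was 0.0587 without SMA brain library 1 and 0.0531 without SMA brain library 2.

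Nfia (ENSMUSG00000028565, chr4:97578066-98118876) and Nfib (ENSMUSG00000008575, chr4:82290173-82506751), the NFI factors that act earliest in gliogenesis, had smaller differences that depended on single libraries. Nfia had 326, 395 and 284 normalized CPM in control brain and 261, 212 and 246 in control spinal cord, a log2 fold change of -0.47 (SE 0.13, adjusted p = 0.0256), and of -0.54 without control spinal cord library 1. Without control brain library 1, control brain library 2 or control spinal cord library 2, the adjusted p of Nfia was 0.0501, 0.0811 and 0.0746. In SMA embryos Nfia was at -0.42 (SE 0.16, adjusted p = 0.0688), and at -0.43 (adjusted p = 0.0428) with the replicate number as a block, and its adjusted p was 0.0312 without SMA brain library 3 and 0.00654 without SMA spinal cord library 1. Nfib had 203, 252 and 191 normalized CPM in control brain and 217, 144.9 and 153 in control spinal cord. The high spinal cord value of Nfib is that of library 1, which held the most footprints on proliferation genes. With all libraries Nfib was at -0.31 (SE 0.17, 95% interval -0.71 to 0.083, adjusted p = 0.180), and without control spinal cord library 1 it was lower in spinal cord, at -0.52 (adjusted p = 0.0186). In SMA embryos Nfib was lower in spinal cord, at -0.57 (SE 0.16, adjusted p = 0.0228), with an adjusted p of 0.0551 to 0.0754 without SMA brain library 1 or 2 or SMA spinal cord library 2 or 3.

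Of the remaining receptor and matrix protein, Ptprz1 (ENSMUSG00000068748, chr6:22875315-23052916) was called in neither genotype. Its log2 fold change was -0.21 in control (SE 0.13, 95% interval -0.51 to 0.092, adjusted p = 0.232) and -0.21 in SMA embryos (SE 0.11, 95% interval -0.45 to 0.033, adjusted p = 0.150). Spinal cord library 2 of either genotype was low, with 386 and 397 normalized CPM, where the other 10 libraries had 484 to 587. Tnc (ENSMUSG00000028364, chr4:63959785-64047015), the matrix glycoprotein tenascin-C of radial glia, was at -0.21 in control (SE 0.14, 95% interval -0.53 to 0.11, adjusted p = 0.254). Without control spinal cord library 1, Tnc was at -0.13 and Ptprz1 at -0.30 in control, and both stayed uncalled. In SMA embryos Tnc was lower in spinal cord, at -0.59 (SE 0.11, adjusted p = 0.00375), with 55.2, 59.8 and 65.8 normalized CPM against 94.6, 94.8 and 83.1 in brain. The difference in the tissue effect of Tnc between the genotypes was tested by the interaction given further on.

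Between the tissues of SMA embryos, 7 of the 9 genes differed, where 36.7% of all genes did. Of these, 3 were higher in spinal cord (19.5% of all genes were) and 4 were lower (17.2% of all genes were), and 8 of the 9 had no overlap, where 51.8% of all genes had none. Ptprz1 gave an adjusted p of 0.0450 with upper-quartile factors and of 0.0317 without SMA spinal cord library 1. Over both genotypes, the 6 spinal cord and the 6 brain libraries did not overlap for Olig1, Pdgfra, Bcan, Sox9 and Nfix, 5 of the 9 genes, where 31.5% of all genes did not. For these 5 genes the 2-sided exact permutation test gave p = 0.00216. Groups that do not overlap fix this p at its lowest possible value with 6 libraries in each tissue, so it only repeats the lack of overlap. By the same test p was 0.00649 for Nfia, 0.0152 for Nfib and 0.00866 for both Ptprz1 and Tnc, whose libraries overlapped. The 6 libraries of a tissue hold both genotypes, and whether a brain and a spinal cord library with the same number come from the same embryo is not stated. The median log2 fold change of the 9 genes was -0.21 in control and -0.42 in SMA embryos, where the median over all genes was 0.015 and 0.027.

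**Figure D2:**
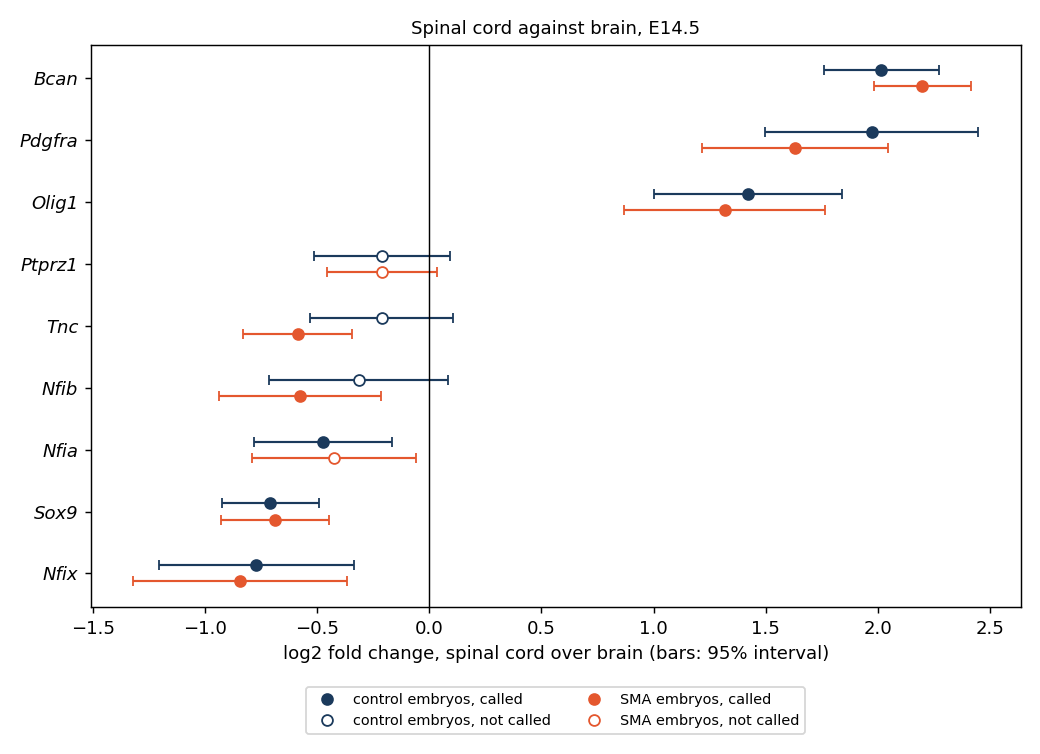
Log2 fold change of spinal cord over brain for each gene, in control embryos (dark points) and SMA embryos (orange points), with 95% intervals from edgeR. Filled points have an adjusted p below 0.05. Bcan, Pdgfra and Olig1 lie above 1 in both genotypes, and the 6 other genes lie below 0.

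Other genes of the same programme were followed where a name was at hand, which depended on a list of dysregulated genes that the study drew from these data. Of 26 listed signals and receptors, 4 could be followed and all 4 differed between control tissues. Il6st, the receptor subunit gp130 through which astrocyte-inducing cytokines act, was higher in spinal cord at 1.13 (SE 0.11), and Stat3, the transcription factor below it, at 1.01 (SE 0.11). The Notch ligands Dll1, at -0.84 (SE 0.12), and Dll3, at -0.43 (SE 0.13), were lower. Of 23 other transcription factors, 6 could be followed, of which 3 were lower and 1 was higher in spinal cord. Lhx2, which holds cortical progenitors back from gliogenesis, was lower at -2.42 (SE 0.24), and Id4, an inhibitor of basic helix-loop-helix factors, at -0.52 (SE 0.11). Rfx4, a factor of neural progenitors, was higher at 1.00 (SE 0.21). The adjusted p of these 7 genes lay between 0.000371 and 0.0299.

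Most of the listed astroglial and oligodendrocyte lineage genes that could be followed stood with Bcan, Pdgfra and Olig1. Of 21 astroglial genes, 8 could be followed and 6 were higher in control spinal cord, with a median of 0.81 over the 8, where the median over all genes was 0.015. Among them, Slc1a3, a glutamate transporter also listed for radial glia, was at 1.21 (SE 0.085). Ndrg2 was at 0.86 (SE 0.10) and Apoe, a lipid carrier, at 1.27 (SE 0.24). Fabp7, a fatty acid carrier of radial glia, was at -0.36 (SE 0.16, adjusted p = 0.114) and was not past the test. Of 17 oligodendrocyte lineage genes, both that could be followed were higher, Bcas1 at 1.85 (SE 0.20) and Cnp, a myelin enzyme, at 0.79 (SE 0.16). Of 20 ligands and matrix partners, 3 could be followed. Vcan, a proteoglycan of the same family as Bcan, was lower at -0.72 (SE 0.16, adjusted p = 0.00941), and Ncan, another member of that family, was at -0.091 (SE 0.10, adjusted p = 0.492). Without control spinal cord library 1, the count of astroglial genes that were higher was again 6 of 8, with a median of 0.88.

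**Figure D3:**
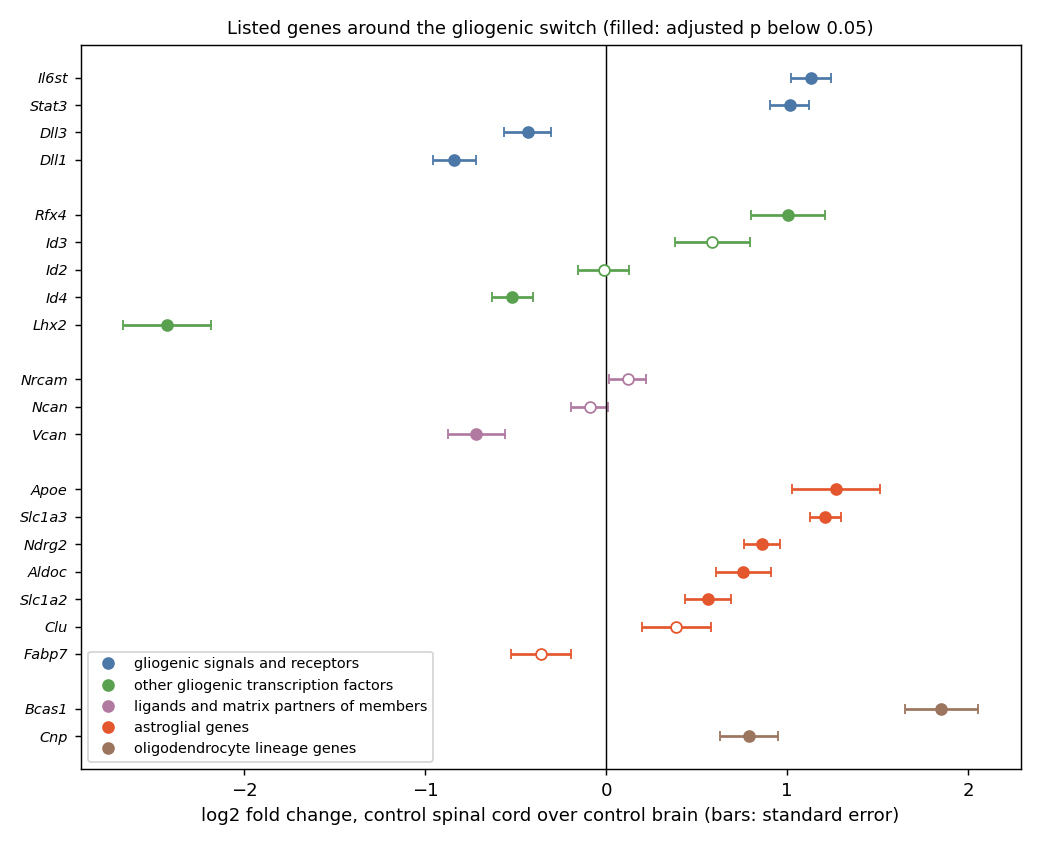
Log2 fold change of control spinal cord over control brain, with SE, for genes of each list that are reported here by name, grouped by list. Of the 7 astroglial genes drawn, 5 are filled (adjusted p below 0.05) and lie above 0, as do both oligodendrocyte lineage genes.

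The comparison of SMA with control asked whether SMN loss changed ribosome occupancy. By the study's own thresholds a gene counts as changed where the unadjusted p is below 0.05, the log2 fold change is 0.5 or more in either direction and mean CPM reaches 0.05. In brain, 0 of the 9 genes passed, where 1.53% of all genes did. At an unadjusted p below 0.05 with any fold change it was 0 of 9 as well, where 5.05% of all genes passed, and DESeq2 called 0 by the same thresholds. The median log2 fold change of the 9 genes was 0.0047, against 0.0014 over all genes. In the genotype comparisons below, CPM of the 9 genes was normalized over the 6 libraries of one tissue. CPM of other genes, such as Col1a1 and Col2a1, was normalized over all 12 libraries, so the 2 scales differ slightly.

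Pdgfra had the largest brain value, with 40.1, 25.5 and 21.9 normalized CPM in control and 28.0, 37.7 and 39.6 in SMA libraries 1, 2 and 3. The genotypes overlapped, through the high control library 1. The log2 fold change was 0.23 (SE 0.21, 95% interval -0.22 to 0.69, adjusted p = 0.918). Without control brain library 1 Pdgfra passed the thresholds of the study as increased, at 0.57 with an unadjusted p of 0.0101 from edgeR and an adjusted p of 0.887. That library also had the most Col1a1 of the brain libraries, 9.19 normalized CPM against 2.46 to 5.37, and the part of Col1a1-making cells was not tested. Olig1, with the fewest counts of the 9 genes, was at 0.17 (SE 0.22, 95% interval -0.31 to 0.65). The intervals of Bcan, from -0.30 to 0.26, and Ptprz1, from -0.22 to 0.13, leave less room for a difference than those of Pdgfra or Olig1.

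Sox9 was the 1 gene of the 9 whose brain libraries did not overlap between genotypes, where 11.0% of all genes did not, 6.22% with the SMA side lower. Its values were 93.5, 89.7 and 97.8 normalized CPM in control and 88.6, 88.9 and 74.0 in SMA brain. SMA libraries 1 and 2 lay within 2 normalized CPM of the lowest control library, and SMA library 3 stood lower. The log2 fold change was -0.16 (SE 0.11, 95% interval -0.39 to 0.079, adjusted p = 0.902). An exact permutation test gave p = 0.1, its lowest possible value with 3 libraries in each group, which the lack of overlap fixes. SOX9 is also the master factor of cartilage, whose collagen gene Col2a1 had 122, 113 and 127 normalized CPM in control and 94.3, 98.9 and 71.7 in SMA brain, lowest in the same library. The part of Col2a1-making cells was not tested. Nfia at -0.022, Nfib at 0.028 and Nfix at 0.0047 had intervals that reached at most 0.46 on either side of 0.

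In spinal cord, 0 of the 9 genes passed the thresholds of the study, where 0.983% of all genes did. The genotypes did not overlap for Sox9 and Tnc, 2 of the 9 genes, where 14.7% of all genes did not, and both were lower in SMA, where 7.14% of all genes were. The median log2 fold change was -0.094 over the 9 genes and -0.0054 over all genes, and -0.050 over the 9 without control spinal cord library 1. Tnc alone had an unadjusted p below 0.05 (1 of 9, where 6.99% of all genes did). It had 68.7, 70.8 and 92.0 normalized CPM in control and 55.9, 60.7 and 66.1 in SMA spinal cord. Control library 3 was high, and the other 2 control libraries lay just above the highest SMA library. The log2 fold change of Tnc was -0.34 (SE 0.14, 95% interval -0.66 to -0.019, unadjusted p = 0.0405 and adjusted p = 0.684 from edgeR). Leaving out 1 library in turn kept Tnc between -0.42 and -0.19, with an unadjusted p of 0.0242 to 0.124 from edgeR, where the lowest is that without control spinal cord library 1. The p was above 0.05 when control library 3, or either of SMA libraries 1 and 2, was left out, with upper-quartile factors, and with the trend on footprint density taken out. With both spinal cord libraries numbered 1 left out, Tnc was at -0.36 with an unadjusted p of 0.0572 from edgeR.

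Sox9 had 62.4, 56.8 and 58.4 normalized CPM in control and 52.8, 51.2 and 54.6 in SMA spinal cord. All 3 SMA libraries lay below all 3 control libraries, as in brain. The log2 fold change was -0.16 (SE 0.082, 95% interval -0.36 to 0.031, adjusted p = 0.684), and -0.12 without control spinal cord library 1. Col2a1 had 73.8, 77.9 and 112 normalized CPM in control and 77.2, 80.6 and 83.0 in SMA spinal cord, so its genotypes overlapped there. Of 10 radial glia genes, 3 could be followed. Nes, the progenitor filament nestin, had 160, 150 and 168 normalized CPM (12 libraries scaled together) in control and 111, 113 and 139 in SMA spinal cord. In brain it had 349, 377 and 390 in control and 330, 297 and 248 in SMA, so SMA lay below control with no overlap in both tissues. Its log2 fold change was -0.33 in brain (SE 0.11, unadjusted p = 0.00934, adjusted p = 0.902 from edgeR) and -0.41 in spinal cord (SE 0.11, unadjusted p = 0.00662, adjusted p = 0.684 from edgeR), below the fold threshold of the study. The other two, Slc1a3 at -0.050 in brain and 0.24 in spinal cord and Fabp7 at 0.17 and 0.32, did not lie lower with it in spinal cord. The part of progenitor cells in the Sox9 and Tnc values was not tested.

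Nfib had the next largest difference in spinal cord, with 223, 148 and 155 normalized CPM in control and 167, 134 and 137 in SMA. It was at -0.26 (SE 0.18, 95% interval -0.68 to 0.16), and at -0.050 without control spinal cord library 1, so 1 library carried most of this value. Pdgfra was at -0.13 (SE 0.14), Nfix at -0.094 (SE 0.12), Ptprz1 at -0.072 (SE 0.16), Olig1 at 0.049 (SE 0.15) and Nfia at -0.00088 (SE 0.14). Without control spinal cord library 1 the signs of Olig1 (-0.058), Nfia (0.070) and Ptprz1 (0.026) turned, and Pdgfra was at -0.059 and Nfix at -0.025. Bcan was at 0.14 (SE 0.085, 95% interval -0.060 to 0.34), with 157, 179 and 163 normalized CPM in control and 176, 182 and 192 in SMA, groups that overlapped by 1 control library. These intervals hold no difference between genotypes as large as those between tissues for Bcan, Pdgfra or Olig1.

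Of the listed signals, transcription factors, partners, astroglial and oligodendrocyte lineage genes that could be followed, 0 passed the thresholds of the study in either tissue. In spinal cord all 8 astroglial genes had values above 0, and their median was 0.21 on the log2 scale, or 0.16 without control spinal cord library 1. All 6 proliferation genes had values below 0 there, with a median of -0.54 that was -0.086 without that library. Which genes could be followed depended on the study's own list from these data, so these directions are descriptions only. Slc4a1, an erythrocyte gene, passed as higher in SMA spinal cord, with 10.7 normalized CPM in SMA library 1, 2.72 and 3.60 in SMA libraries 2 and 3 and 1.04 to 1.75 in control. Col1a1 passed as lower in SMA brain, at -0.95. The part of these cell types in the values of the 9 genes was not tested.

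**Figure D4:**
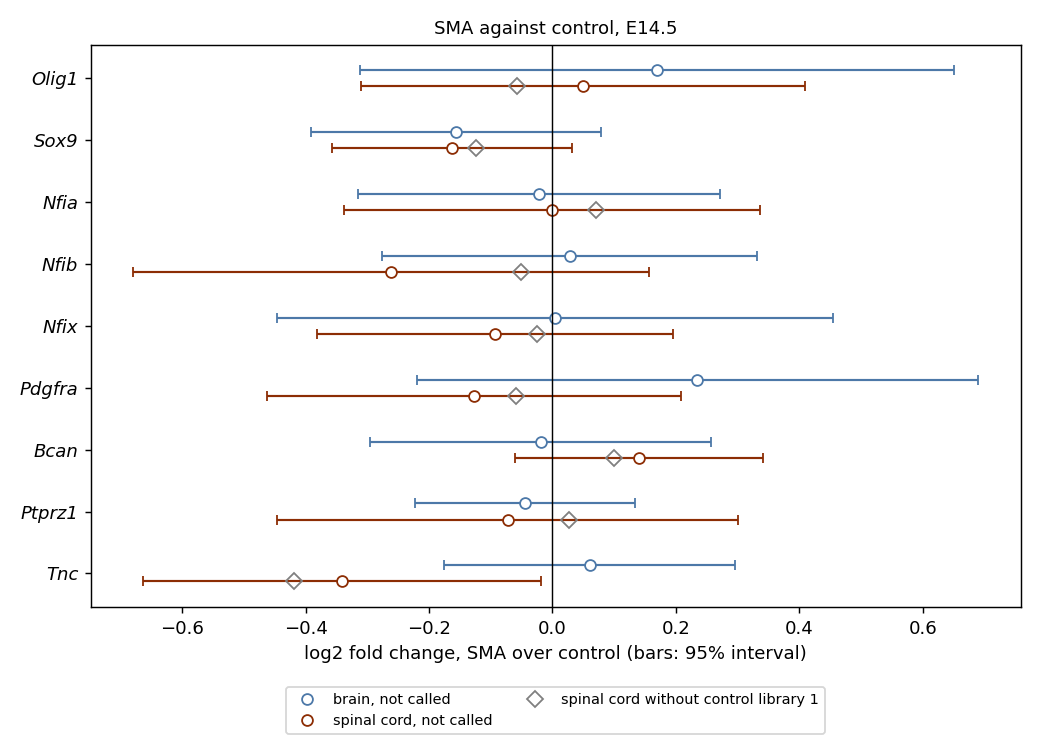
Log2 fold change of SMA over control for each gene in brain (blue) and spinal cord (brown), with 95% intervals from edgeR, and in spinal cord without control library 1 (grey diamonds). No gene passed the thresholds of the study, only the spinal cord interval of Tnc leaves out 0, and Sox9 lies at -0.16 in both tissues.

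A fit over all 12 libraries with tissue as a term gave 0 of 9 genes past the thresholds of the study, where 0.849% of all genes passed. Sox9 was at -0.16 (SE 0.062, 95% interval -0.30 to -0.029), with an unadjusted p of 0.0206 and an adjusted p of 0.343 from edgeR. It was the 1 gene of the 9 with an unadjusted p below 0.05 in this fit, where 12.1% of all genes had one. In the 12 fits that each left out 1 library, Sox9 stayed between -0.18 and -0.13. With both spinal cord libraries numbered 1 left out it was at -0.14, with an unadjusted p of 0.0729 from edgeR. The interaction of tissue and genotype tests whether SMA changed a gene differently in spinal cord and brain, which is also whether the tissues differed more in one genotype. At an adjusted p below 0.05 and at an unadjusted p below 0.05 it gave 0 of 9 genes, where 0 and 2.38% of all genes passed in edgeR, and DESeq2 gave 0 of 9 at an adjusted p below 0.05. The largest interactions were those of Tnc, at -0.37 (SE 0.18, 95% interval -0.77 to 0.021, unadjusted p = 0.0615 and adjusted p = 1 from edgeR), and Pdgfra, at -0.33 (SE 0.30). Leaving out 1 library in turn gave -0.45 to -0.22 for Tnc, with an unadjusted p of 0.0272 to 0.182 from edgeR, and -0.68 to -0.17 for Pdgfra, with an unadjusted p of 0.0195 to 0.565. Tnc was below 0.05 without SMA brain library 3, control spinal cord library 1 or 2, or SMA spinal cord library 3, without both spinal cord libraries numbered 1, and with library size alone, and Pdgfra without control brain library 1. The adjusted p of Tnc ranged from 0.865 to 1 over the fits that left out 1 library, so its tissue difference in SMA embryos was not shown to differ from that in control embryos. The other 7 genes lay between -0.26 and 0.19 in this test. The lower end was that of Nfib, which was at -0.053 without control spinal cord library 1. In the fit with tissue as a term, leaving out that library moved Nfib from -0.12 to -0.013 and Nfia from -0.013 to 0.014.

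The 9 genes did not share 1 pattern over the 12 libraries. Likeness was measured as the root mean square difference of log2 normalized CPM after centring each gene, over 12 libraries and 1964 named genes, so that 0 is an identical pattern. The closest of the 9 to each other were Nfia and Nfib (0.13), then Nfia and Ptprz1 (0.19) and Sox9 and Tnc (0.21). Outside the 9, Olig1 was nearest to Sulf2 (0.13), a heparan sulfate sulfatase, and Ntn1 (0.14), a guidance cue. Pdgfra was nearest to Slc2a3 and Gfra2, and Bcan to Ckmt1 (0.18), a mitochondrial creatine kinase, and Met, a receptor tyrosine kinase. Ckmt1 had 50.2 normalized CPM in control brain and 214 in control spinal cord. Sox9 was nearest to Sart3 and Tfap4, Nfia after Nfib to Ubl4a, and Nfib after Nfia to Peli1. Nfix was nearest to Plagl1 and Fbln1, Ptprz1 to Cdk12 and Pum2, and Tnc to Snapc2 and Acyp1. The libraries share tissue and depth, so these distances describe the tissue difference above all.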

How the data were processed

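Ribosome-protected fragments of E14.5 brain and spinal cord were sequenced in 3 control and 3 SMA libraries of each tissue, and groups were taken from the sample labels. The values are raw footprint counts per gene as deposited by the authors. According to the study's methods, adapters were trimmed (cutadapt 4.1), rRNA and tRNA reads were removed, and reads were aligned with STAR 2.5.3a to GRCm38.p6 with a Gencode annotation, keeping reads with several alignments, so counts of genes with near-identical copies may be shared. Reads at the same transcript position were removed before positional analyses, and lowly expressed genes were removed, which left 10481 genes. The counting program is not given in the sources used here.

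Counts were fitted with edgeR 4.0.16 (R 4.3.3) by the quasi-likelihood test with TMM scaling over all genes, within 1 tissue for SMA against control and within 1 genotype for spinal cord against brain, and p-values were adjusted over all genes by Benjamini-Hochberg. SMA against control was called by the thresholds of the study (mean CPM at least 0.05, absolute log2 fold change at least 0.5, unadjusted p below 0.05), and the tissues and the interaction by an adjusted p below 0.05. SEs were taken from the fold change and its F statistic (the absolute log2 value over the root of F), and 95% intervals used the degrees of freedom of each fit. DESeq2 1.42.0, other scalings, filters, dispersions, the replicate number as a block and the omission of each library were alternatives. The script was tested on simulated data in which 200 genes were changed. The study gives 3 embryos for each genotype, and the labels number the libraries of each group 1 to 3. No RNA-seq was used.

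The 10 genes and all lists were chosen with earlier results of these data known. The counts carry Ensembl identifiers. Names of other genes came from a name column of the study, which covers 1999 genes. That column belongs to a supplement that the paper presents as its list of dysregulated genes. Which listed genes could be followed thus depended on a list made from these same data. Of each list at most 4 genes were named, beside library markers. They were those with the smallest p among the called genes or else the highest mean CPM. Some genes counted in the lists are not reported here by name. Positions are those of RefSeq genes on GRCm38.p6. Per length levels are TMM-normalized CPM over 12 libraries divided by the deposited gene length.

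Replicate numbers were checked as pairs by correlating deviations from group means over all genes. For SMA brain and SMA spinal cord the correlations were 0.363, 0.118 and 0.145, all above 0.1, so the block is given beside a result it changed. Libraries with unlike numbers correlated as well, at 0.219 for SMA brain 3 with SMA spinal cord 2 and 0.140 for SMA brain 2 with SMA spinal cord 3. The correlations therefore do not single out the same number for libraries 2 and 3. The labels do not tie the tissues of an embryo, so the block by number is an assumption. The other comparisons had at least 1 correlation under 0.1. No pair of replicates agreed within counting error (chi-square over genes of 3.98 to 23.7 per gene).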

Additional observations from a re-analysis of the deposited data

How the results depend on the processing

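In the tissue comparisons the directions of the 9 genes held under every alternative run, and Bcan, Pdgfra, Olig1 and Sox9 kept an adjusted p below 0.05 in both genotypes. Members called in control tissues ranged from 5 to 7 when 1 library was left out, and in SMA tissues from 5 to 9. In these fits 2550 to 3848 of all 10481 genes were called in control tissues and 2628 to 4092 in SMA tissues. In SMA tissues 8 were called with DESeq2, filterByExpr, 1 fit over 12 libraries or the replicate block, and 9 with upper-quartile factors. Over all genes, these alternatives called 3667, 4050 (of 9923 kept), 4230, 3745 and 4024 in that order. The median of the 9 genes was -0.34 in control tissues with the trend on footprint density (counts per base) taken out, and -0.56 to -0.31 in SMA tissues when 1 library was left out. For SMA against control, members called in brain ranged from 0 to 1 when 1 library was left out, and other alternatives called 0 by the thresholds of the study. An unadjusted p below 0.05 alone gave 1 in spinal cord and 1 over both tissues. The median in spinal cord ranged from -0.17 to 0.0029 when 1 library was left out.

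Among the directions that turned were those of Nfix, Nfia, Olig1 and Pdgfra between genotypes, and the cause was not tested. In brain Nfix was -0.014 with library size alone, -0.0027 with that trend taken out, -0.0073 with the replicate block and -0.013 in the fit over 12 libraries, and Bcan was 0.023 with that trend taken out. In spinal cord Nfia was 0.0035 with DESeq2, 0.014 with upper-quartile factors, 0.0041 with that trend taken out and 0.012 in the fit over 12 libraries. Nfia over both tissues was 0.0014 with upper-quartile factors. In the interaction Ptprz1 was -0.0036 with DESeq2, -0.030 with library size, -0.022 with upper-quartile factors and -0.029 with that trend taken out, and Sox9 was -0.0099 with library size and -0.0014 with upper-quartile factors. With both spinal cord libraries numbered 1 left out, an alternative chosen after seeing the data, Olig1 was -0.021 in spinal cord, and Ptprz1 -0.015 and Nfia -0.045 in the interaction.

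Leaving out 1 library gave in brain -0.042 to 0.27 for Olig1, -0.12 to 0.11 for Nfia, -0.070 to 0.17 for Nfib, -0.16 to 0.24 for Nfix and -0.086 to 0.058 for Bcan. In spinal cord it gave -0.058 to 0.19 for Olig1, -0.25 to 0.0029 for Pdgfra, -0.14 to 0.11 for Nfia and -0.22 to 0.030 for Ptprz1. Over both tissues it gave -0.046 to 0.13 for Pdgfra, -0.077 to 0.049 for Nfia and -0.12 to 0.053 for Nfix. In the interaction it gave -0.21 to 0.12 for Olig1, -0.056 to 0.069 for Sox9, -0.089 to 0.15 for Nfia, -0.30 to 0.10 for Nfix and -0.14 to 0.095 for Ptprz1.

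With the replicate number as a block, 0 of the 9 genes were called in brain, spinal cord, both tissues and the interaction, 6 in control tissues and 8 in SMA tissues, and Nfia in SMA tissues was the 1 call it changed. Over all genes, calls in spinal cord numbered 103, 207 with the block, 169 in the fit over 12 libraries, 272 without both libraries numbered 1 and 58 to 388 when 1 library was left out. In brain they numbered 160, 91 with DESeq2 and 169 to 273 when 1 library was left out, and over both tissues 89 and 53 to 217. In control tissues they numbered 4029, 4489 with the block and 2550 to 3848 when 1 library was left out. In SMA tissues they numbered 3849, 3745 with the block and 2628 to 4092 when 1 library was left out. The alternative with coding length was not run. Depth limits Olig1 most, which had as few as 30 counts in a brain library.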

Other observations

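Between control tissues, neuronal and progenitor genes also differed. Nes, an intermediate filament of progenitors, was lower in spinal cord at a log2 fold change of -1.21, and Nefl and Nefm, the neurofilament genes of growing axons, were higher at 1.95 and 1.90. Elavl3, an RNA-binding protein of young neurons, was lower at -0.35, while Map2 at -0.21 and Mapt at -0.19 were not past the test. Of 6 proliferation genes 4 were lower in control spinal cord, with a median of -1.38, and 6 of 6 were without control spinal cord library 1, with a median of -2.22. Of the 9 gliogenic switch genes, the one whose value moved most without that library was Nfib, from -0.31 to -0.52.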
